A study of Mus musculus with 2 samples.

Results

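The genes described here carry amino acids and related small molecules across cell membranes and belong to 7 families of solute carriers. They were taken as every gene whose name on the array begins with Slc1a, Slc3a, Slc6a, Slc7a, Slc36a, Slc38a or Slc43a followed by a number. The rule reads names and not measured values, but it was set with earlier results of these data known. This gave 62 of 31894 gene names, read by 77 probes at 95 spots. The pattern also takes in Slc7a6os, a gene on the opposite strand beside Slc7a6 that is no transporter, and it is counted but set apart where it matters. Expression was measured in the livers of C57BL/6 mice, 1 array for the wild-type genotype and 1 for Alb-Cre;CAG-floxed neo-Snail. Alb-Cre expresses Cre recombinase from the promoter of the hepatocyte gene albumin, and the genotype pairs it with a floxed neo Snail transgene behind the widely active CAG promoter. Age, sex, diet and the presence of tumour tissue are not stated in the labels. The study concerns steatohepatitis and liver tumours after enforced Snail expression, and the comparison asks how these 2 livers differ.

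Amino acids cross the hepatocyte surface by carriers that differ in what they move and in what drives them. System A and system N carriers of the SLC38 family bring in small neutral amino acids and glutamine with sodium, system L carriers of SLC7 and SLC43 exchange or pass large neutral amino acids, and the cationic carriers of SLC7 move arginine and lysine. Several SLC7 proteins reach the surface only when bound to a heavy chain of the SLC3 family. The SLC1 family carries glutamate and small neutral amino acids, and the SLC6 family carries creatine, taurine, betaine, glycine and neurotransmitters. Some SLC36 carriers work with protons, and the family is found largely on lysosomes.

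With 1 array in each group there is no replicate check on any value, and differences are described without a test. Signals are the scanner software's background-subtracted brightness of a spot, and they are not scaled between the arrays. A log2 difference is the library labelled Snail minus wild-type after each array's 75th percentile, a signal of 232.7 in wild-type and 302.1 in the other, was subtracted on the log2 scale. The spread between spots of the same probe on these arrays gives the spot-to-spot part of the technical error, called the technical SD below. As a median SD of the log2 difference it was 0.19 for signals under 100, 0.07 from 100 to 1000 and 0.04 above 1000. It holds no difference between animals, RNA preparations, labellings or hybridizations. The probe for Snai1, which encodes Snail, had signals of 23.2 in wild-type and 22.3 in the other library, a log2 difference of -0.44. It does not check the genotype, since its position relative to the transgene is not given in the sources used here, and the second array is called the library labelled Snail throughout. In bulk liver, fewer cells of a type and less RNA per cell cannot be told apart.

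Of the 62 names, 29 (46.8%) were measured on both arrays, which means well above background by the scanner software's own call, against 48.5% of all gene names. Only 1 was seen in wild-type alone and 1 in the library labelled Snail alone, against 1.45% and 4.37% of all names, and 31 were below background on both arrays, against 45.7%. Taking a 2-fold difference as the threshold, 3 of the 29 measured genes were higher, beside 3.96% of all measured genes, and 6 were lower, beside 6.34%. These shares are 10.3% and 20.7% of the measured members. The higher genes were the creatine transporter Slc6a8, the nucleobase carrier Slc43a3 and the heavy chain Slc3a1. The lower genes were Slc43a1, Slc38a3, Slc1a2, Slc6a9, Slc1a4 and Slc38a4, which between them carry large neutral amino acids, glutamine, glutamate, glycine and small neutral amino acids. The median log2 difference of the measured members was -0.09, near the -0.03 of all 15466 measured genes. The members' quartiles were -0.64 and 0.39, and those of all measured genes -0.34 and 0.26.

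**Figure D1:**
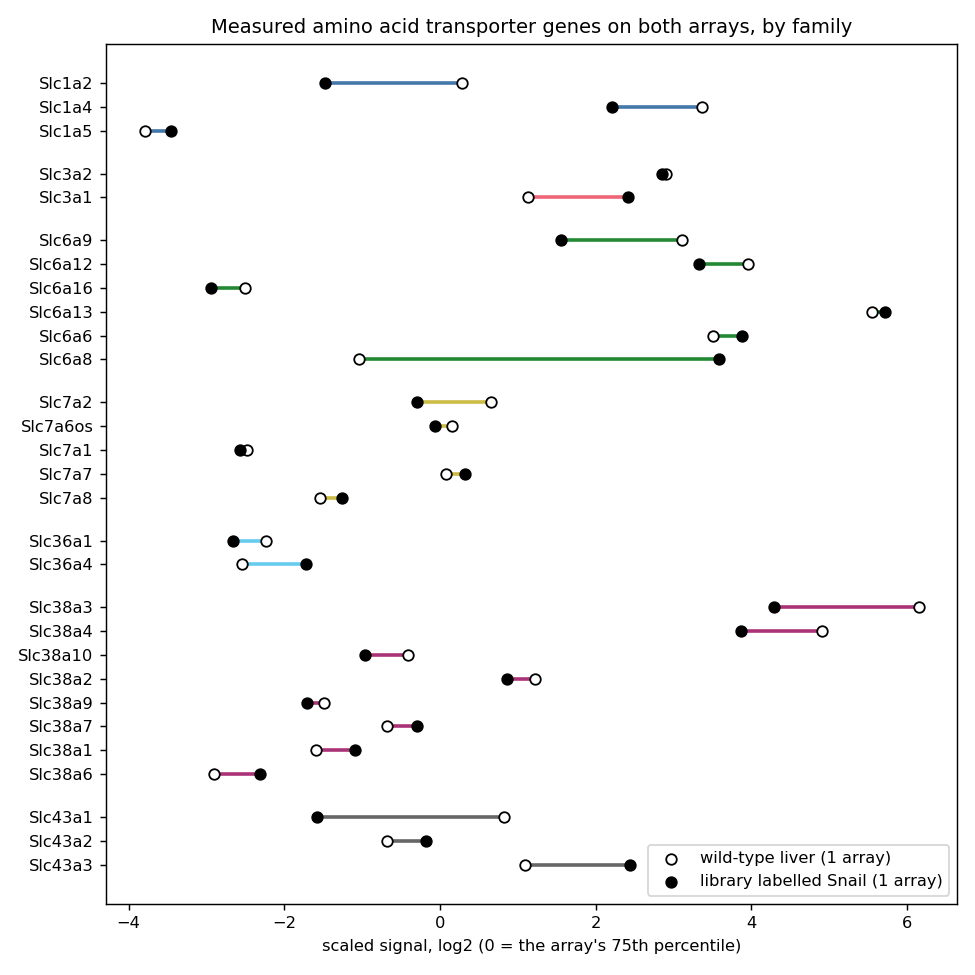
Scaled signal (log2, where 0 is the array's 75th percentile) of the 29 genes measured on both arrays, grouped by family, with an open point for wild-type liver and a filled point for the library labelled Snail, 1 array each. The longest line is that of Slc6a8, and levels of different genes come from different probes and are not comparable with each other.

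**Figure D2:**
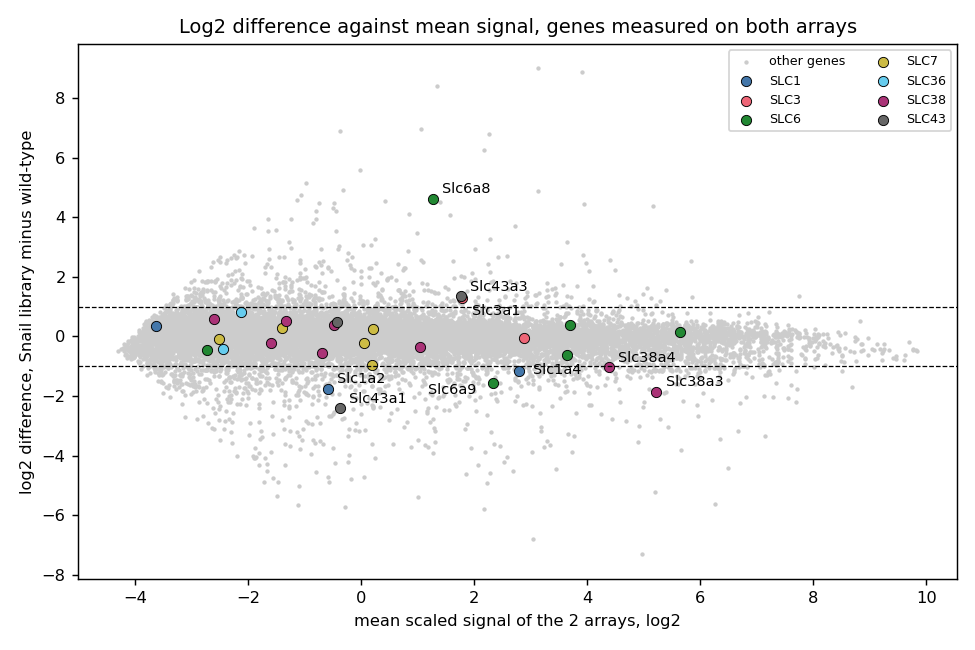
Log2 difference (library labelled Snail minus wild-type) against the mean scaled log2 signal of the 2 arrays for genes measured on both, with members coloured by family and other genes in grey, and dashed lines at 2-fold. The 9 labelled members lie outside the lines, Slc6a8 highest at 4.63 and Slc43a1 lowest at -2.40.

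The gene furthest apart was Slc6a8, which encodes the creatine transporter that brings creatine into muscle, brain and other tissues. A single probe read a signal of 113.2 for wild-type and 3632 for the other library, on chromosome X from 70927775 to 70927834 (mm9). The log2 difference was 4.63, or 24.7-fold higher, against a technical SD of 0.07, and it ranked 13 of the 15466 measured genes, counted from the highest. With another background correction (normexp) the log2 difference was 4.01. The creatine synthesis genes, chosen after the values were seen, differed otherwise. Gamt, whose product makes creatine from guanidinoacetate and is abundant in liver, had signals of 14661 and 5631 and a log2 difference of -1.76, and Gatm, which makes guanidinoacetate, was at 0.04. The muscle markers Myh4, Acta1 and Ckm and the kidney tubule markers Umod, Slc34a1 and Slc12a1 were below background on both arrays. Other tissue markers were not all dark. Of the neuron markers, Snap25 was at a log2 difference of 0.36, Syt1 at -0.78 and Rbfox3 at -0.20. The neuron marker Tubb3 was below background on both arrays. Vil1, listed as an intestine marker, encodes villin of the brush border. It was seen in the library labelled Snail alone, at 242.1 against 2.98, and was at least 13.5-fold higher there. From the same list, Fabp2 was at 0.08 and Sis below background. The pancreas marker Cpa1 was seen in the library labelled Snail alone too, at 25.2 against 7.48. Amy2a5 was at -0.27, and Prss1 and Cela1 were below background. Whether these markers stand for cells of those tissues, and the part of such cells in the transporter values, was not tested.

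The other carriers of osmolytes and GABA in the SLC6 family stayed under 2-fold. Slc6a13, a carrier of taurine and GABA in hepatocytes, had signals of 10936 and 15857 and a log2 difference of 0.16. Slc6a12, which carries betaine and GABA and whose probe lies 27.9 kb away on chromosome 6 (mm9), had signals of 3620 and 3023 and a log2 difference of -0.64. The neighbours thus stood on either side of 0. Slc6a6, the taurine transporter, had signals of 2648 and 4437 and a log2 difference of 0.37. Slc6a16, an orphan member of the family, had signals of 41.0 and 39.2 and a log2 difference of -0.44.

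Slc6a9, which encodes a sodium-coupled glycine transporter, was lower in the library labelled Snail. One of its probes had signals of 2258 and 1000.2 and the other 1774 and 782.8, with log2 differences of -1.55 and -1.56. These readings are not independent, because the probes share 51 of their 60 bases on chromosome 4 (mm9). The gene was 2.94-fold lower. The remaining neutral amino acid carriers of the family (Slc6a7, Slc6a14, Slc6a15, Slc6a17, Slc6a18, Slc6a19, Slc6a20a and Slc6a20b) were below background on both arrays, as were the monoamine carriers Slc6a2, Slc6a3 and Slc6a4 and the GABA carrier Slc6a11. Cltrn, a surface partner of the Slc6a19 protein in kidney, was below background on both arrays too. Of the 19 names of the SLC6 family 6 were measured, 1 higher and 1 lower by 2-fold, with a median log2 difference of -0.14 that turned to 0.16 when probes with signals under 100 were left out.

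Among the glutamine and small neutral amino acid carriers of the SLC38 family, the genes called by 2-fold were both lower. Slc38a3 encodes the system N carrier through which hepatocytes take up or release glutamine. Its signals were 16533 (wild-type) and 5928 (library labelled Snail), a log2 difference of -1.86, or 3.62-fold lower, against a technical SD of 0.04. Slc38a4, which encodes a system A carrier of liver and is an imprinted gene in mouse, had signals of 6957 and 4425 and a log2 difference of -1.03, or 2.04-fold lower. It sat at the edge of the 2-fold rule, and its log2 difference was -0.95 with normexp, -0.83 under quantile normalization and -0.87 from the value table that the authors deposited.

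The more widely expressed system A genes did not follow them past 2-fold. Slc38a2, which is induced by amino acid shortage in many cells, had signals of 542.7 and 546.6 and a log2 difference of -0.37. Slc38a1 had signals of 77.1 and 141.9 at the probe that was well above background on both arrays and a log2 difference of 0.50. Another Slc38a1 probe passed the background call on the array of the library labelled Snail alone, at 18.5 against 8.66, and the remaining probe was dark on both. The probes of Slc38a1, Slc38a2 and Slc38a4 follow each other on chromosome 15 (mm9), 115.7 kb and 306.9 kb apart when the first Slc38a1 probe is taken, with log2 differences of 0.50, -0.37 and -1.03 in that order. No other protein-coding gene starts between them in the RefSeq annotation of GRCm38.p6.

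The family members tied to lysosomes or of less settled role stayed under 2-fold. Slc38a7, a lysosomal glutamine carrier, had signals of 144.7 and 245.7 and a log2 difference of 0.39. Slc38a9, the lysosomal arginine sensor of the mTORC1 pathway, had signals of 82.9 and 92.7 and a log2 difference of -0.22. Slc38a6 was dim, with signals of 31.0 and 60.5 and a log2 difference of 0.59 that was 0.03 with normexp. Slc38a10, with signals of 175.2 and 154.5, was at -0.56, and at -0.42 with normexp. In all 8 of the 11 SLC38 names were measured, 2 of them lower and 0 higher by the 2-fold threshold, with a median log2 difference of -0.29, and Slc38a5, Slc38a8 and Slc38a11 were below background on both arrays.

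The 3 genes of the SLC43 family went separate ways. Slc43a1 encodes a sodium-independent carrier of branched-chain and other large neutral amino acids. Its signals were 409.8 (wild-type) and 100.6 (library labelled Snail), a log2 difference of -2.40, or 5.29-fold lower, and -1.81 with normexp. Slc43a3, whose product carries purine nucleobases and not amino acids, had signals of 496.7 and 1635 and a log2 difference of 1.34, or 2.53-fold higher. Slc43a2, a close relative of Slc43a1 in function, had signals of 145.5 and 266.4 and a log2 difference of 0.50. The probes of Slc43a1 (chromosome 2, 84703578 to 84703637, mm9) and Slc43a3 (84797987 to 84798046) are 94.4 kb apart, and the genes with the lowest and the second-highest log2 difference of all measured members are thus close neighbours. Rtn4rl2, the only protein-coding gene that starts between them in the RefSeq annotation of GRCm38.p6, was below background on both arrays.

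The SLC3 heavy chains differed from each other. Slc3a1 encodes rBAT, which carries the light chain of Slc7a9 to the surface of kidney and gut cells for uptake of cystine and cationic amino acids. Its signals were 511.0 (wild-type) and 1605 (library labelled Snail), a log2 difference of 1.27, or 2.42-fold higher, against a technical SD of 0.07. Slc7a9 was below background on both arrays, and so was Slc7a13, another light chain that pairs with rBAT. Slc3a2, the heavy chain of the system L, y+L and cystine exchangers, had signals of 1746 and 2178 and a log2 difference of -0.06. That value was 0.07 under quantile normalization and 0.06 from the value table that the authors deposited, so its direction is not settled. The Slc3a1 reading rests on the probe below, on the plus strand of chromosome 17 from 85463142 to 85463201 (mm9), shown because this is the only probe behind the value; it has no part set in capitals.
Slc3a1 probe: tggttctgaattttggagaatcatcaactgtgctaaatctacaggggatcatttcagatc

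Light chains that pair with Slc3a2 were dim or under 2-fold. Slc7a7, the y+L exchanger that exports cationic amino acids, had signals of 244.8 and 377.5 and a log2 difference of 0.25. Slc7a8, a system L exchanger, was printed 10 times. Its wild-type spots ran from 69.2 to 86.7 with a median of 79.7, and those of the library labelled Snail from 118.4 to 132.9 with a median of 128.1. Before scaling, the sets of spots did not overlap. The mean log2 difference after scaling was 0.29 ± 0.11 (SD over 10 spots of 1 array pair, which are technical repeats), and single spots gave values from 0.10 to 0.44. Slc7a5, the system L exchanger of growing cells, passed the background call on the array of the library labelled Snail alone, at 17.6 against 9.66, which is too near the lowest measurable signal for a fold, and its second probe passed on neither array, at 17.8 and 15.5. The cystine exchanger Slc7a11 (xCT) and the light chains Slc7a6 and Slc7a10 were below background on both arrays.

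**Figure D3:**
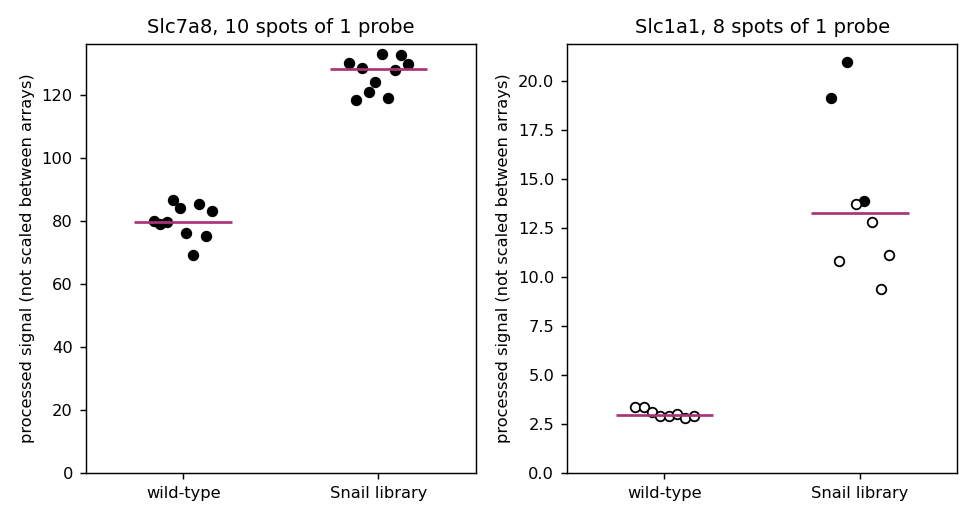
Processed signal of every usable spot of Slc7a8 (10 spots) and Slc1a1 (8 spots) on the wild-type array and the array of the library labelled Snail, with filled points for spots well above background, open points for the others and a line at the median. Slc7a8 spots lie between 69.2 and 86.7 in wild-type and between 118.4 and 132.9 in the other, and 3 of the 8 Slc1a1 spots are well above background in the library labelled Snail alone; no spot is scaled between arrays.

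Of the cationic amino acid carriers, Slc7a2 and Slc7a4 had the lower values. Slc7a2, whose liver form is a high-capacity carrier of arginine, had signals of 366.8 and 246.4 and a log2 difference of -0.95, or 1.93-fold lower, the nearest of the genes that missed the 2-fold threshold, as Slc38a4 is the nearest of those that passed it. Slc7a1, the ubiquitous cationic carrier, had signals of 41.8 and 50.9 and a log2 difference of -0.09. Slc7a4, a relative of these carriers whose own transport activity is not established, was well above background in wild-type liver only, at 93.5 against 3.29. Set against the lowest signal that was well above background on the other array, 12.3, it was at least 9.84-fold lower in the library labelled Snail. A second Slc7a4 probe was dark on both arrays, at 3.61 and 3.53. Slc7a3 was below background on both. Of the 16 SLC7 names 5 were measured on both arrays, none of them 2-fold apart, with a median log2 difference of -0.09, and Slc7a6os was among them at -0.23.

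The SLC1 family held 2 lower genes among 3 measured. Slc1a2 encodes a glutamate transporter that in liver is found in the hepatocytes around the central vein, next to glutamine synthetase. Its 3 probes lie on chromosome 2 from 102617752 to 102626439 (mm9). The first had signals of 1999.6 and 575.0 and a log2 difference of -2.17, the second 159.7 and 59.9 and -1.79, and the third 71.6 and 37.4 and -1.31. All 3 were lower in the library labelled Snail, with a mean of -1.76, or 3.39-fold lower, and -1.25 with normexp. The brightest of them, on the plus strand from 102617752 to 102617811, is shown because the size of the difference depends on which probe is read; it has no part set in capitals.
Slc1a2 probe: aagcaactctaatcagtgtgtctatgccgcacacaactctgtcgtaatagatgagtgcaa

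Slc1a4, a carrier of alanine, serine and cysteine, had signals of 2391 and 1397. Its log2 difference was -1.15, or 2.22-fold lower. Slc1a5, the glutamine exchanger of growing cells, was dim, at 16.7 and 27.5, with a log2 difference of 0.34 against a technical SD of 0.19. It was -0.07 with normexp and -0.10 with no filter on dim probes, but neither value can decide its direction. The normexp offset of 50 exceeds both signals and pulls such dim values together. With no filter, a second probe, below background at 5.90 and 6.16, is averaged in at each array's lowest signal well above background. The direction of Slc1a5 rests on 1 dim probe and is not settled. Slc1a1, a glutamate and cysteine carrier, had a single probe in 8 usable spots, of which 3 were well above background in the library labelled Snail and 0 in wild-type. Its signals ran from 9.38 to 21.0 there and from 2.80 to 3.37 in wild-type. Slc1a3, Slc1a6 and Slc1a7, glutamate carriers of brain and retina, were below background on both arrays.

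Most measured markers of hepatocytes around the central vein were also lower on the array with the lower Slc1a2 and Slc1a4. Of 9 listed genes 7 were measured, 5 of them lower and 0 higher by the 2-fold threshold, but those 5 include Slc1a2 and Slc1a4 themselves. The summed scaled level (log2) of the 7 measured genes, Slc1a2 and Slc1a4 included, was 8.47 in wild-type and 7.40 in the library labelled Snail. The others that were lower were Cyp1a2, Cyp2e1 and Oat, while Glul, which encodes glutamine synthetase, was at -0.31. The ammonium carrier gene Rhbg went the other way, with signals of 607.9 and 1481 and a log2 difference of 0.91. Lgr5 was well above background in wild-type only, at 67.9 against 12.7, and was at least 6.96-fold lower in the other library. Axin2 was well above background in the library labelled Snail only, at 32.6 against 10.9, and was at least 1.82-fold higher there. All 10 hepatocyte markers were measured, with a median log2 difference of -0.64, and 2 of them, Apoa1 and Tat, passed the 2-fold threshold as lower. Of 4 neutrophil markers S100a8 and S100a9 passed it as higher, with summed scaled levels (log2) of 1.59 and 2.77, and of 5 measured macrophage markers Marco did, with 5.12 and 5.50. Of 4 measured stellate cell markers Lrat was 2.01-fold lower and Col1a1 2.50-fold higher, with summed levels of 5.66 and 4.74. The endothelial marker Lyve1 was 3.98-fold higher, with summed levels of 4.22 and 4.09 over 5 markers. Of 2 measured B cell markers, both dim, Ms4a1 was 2.37-fold higher and Cd79a 1.70-fold lower, with summed levels of -2.60 and -1.97. The bile duct markers Krt19, Krt7, Epcam and Cftr were below background on both arrays, and Sox9 was 2.92-fold higher. The part of these cell populations in the transporter values was not tested.

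The measured SLC36 carriers stayed under 2-fold. Slc36a4 had signals of 39.9 and 91.7 and a log2 difference of 0.82, against a technical SD of 0.19 at such dim signals, and 0.15 with no filter, where its dim second probe is averaged in with the wild-type signal raised to that array's lowest measurable one. That probe was below background on both arrays, at 10.4 and 12.5. Slc36a1, found on lysosomes and on the surface of gut cells, had signals of 87.9 and 94.1 at one probe and 27.5 and 24.4 at the other, with log2 differences of -0.28 and -0.55. Slc36a2 and Slc36a3 were dark on both arrays. Further genes below background on both were Slc7a12, Slc7a14 and Slc7a15.

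Ways of processing the values moved sizes more than directions for the 9 genes at least 2-fold apart. Over the 7 other ways, which changed the background correction, the scaling, the source of values, the filter or the choice of probe, each of the 9 kept its direction, and each but Slc38a4 stayed past 2-fold in all of them. Not all of these ways could move a gene. Of the 9 genes only Slc1a2 and Slc6a9 have more than 1 probe. For the others the filters and the choice of probe leave the value as it is, and scaling on the median shifts all genes alike. Slc6a8 and Slc43a1 moved by over 1.5 times with normexp, to the values given above.

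**Figure D4:**
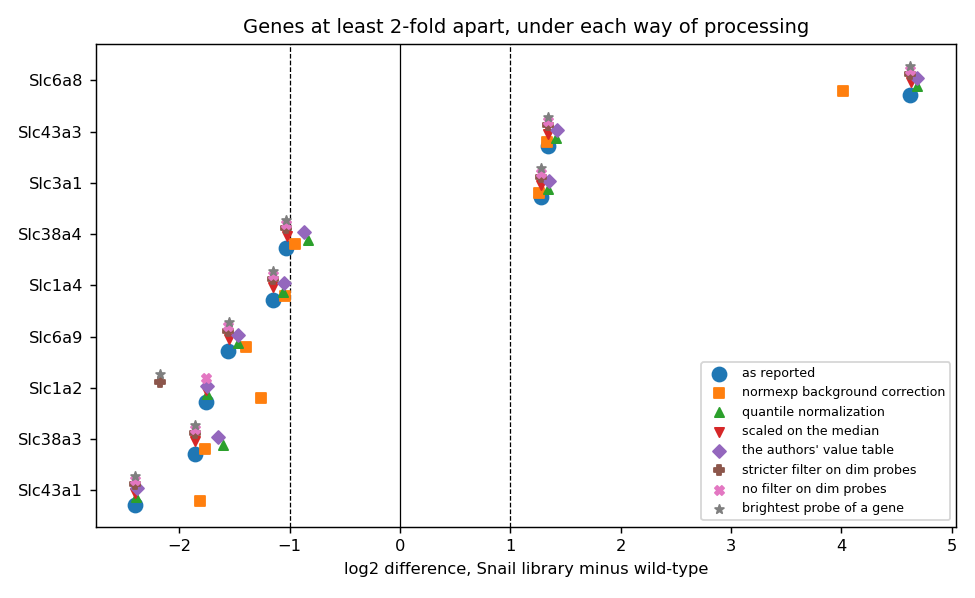
Log2 difference (library labelled Snail minus wild-type) of the 9 genes at least 2-fold apart, as reported and under 7 other ways of processing, with dashed lines at 2-fold. Slc38a4 is the only gene with points inside the lines, and the widest spreads are those of Slc1a2, from -2.17 to -1.25, and Slc6a8, whose normexp point is at 4.01.

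Promoter sequences, which run from 250 bases before to 50 after a gene's start, were searched for letters that bear on the transgene and on amino acid shortage. The letters caggtg (or cacctg on the other strand) form the E-box that Snail binds, and tgatgcaa (or ttgcatca) the amino acid response element bound by the stress factor ATF4. RefSeq promoters (GRCm38.p6) were found for 22 of the 29 measured members, 38 promoters in all. The E-box letters were in 7 of these 38 (18.4%), from 5 genes, against 20.2% of all 32851 promoters, and the matches of Slc6a12 are a single site seen in overlapping windows. The response element letters were in 3 of the 38 (7.89%), from 2 genes, against 0.895% of all promoters, and in Slc7a7 they are a single site seen in overlapping windows. Among the 6 lower genes, promoters with such letters belonged to Slc38a4 and Slc1a4, which are printed for that reason, with the matches in capitals. The remaining measured genes with such letters were all under 2-fold. With the E-box these were Slc6a12 at -0.64, Slc36a1 at -0.41, Slc38a2 at -0.37 and Slc38a9 at -0.22. With the response element it was Slc7a7 at 0.25. No promoter of Slc6a8, Slc38a3, Slc43a3 or Slc7a4 was used here.

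The Slc38a4 promoters are on the minus strand of chromosome 15 (GRCm38.p6), at chr15:97055907-97056206 with the match starting at position -125 from the gene's start, and at chr15:97031164-97031463 with the match at -77. A further Slc38a4 promoter held neither motif. The Slc1a4 promoter is on the minus strand of chromosome 11, at chr11:20332664-20332963, with the match at -4. A match is a run of letters and was not tested as a site.
Slc38a4 upstream promoter: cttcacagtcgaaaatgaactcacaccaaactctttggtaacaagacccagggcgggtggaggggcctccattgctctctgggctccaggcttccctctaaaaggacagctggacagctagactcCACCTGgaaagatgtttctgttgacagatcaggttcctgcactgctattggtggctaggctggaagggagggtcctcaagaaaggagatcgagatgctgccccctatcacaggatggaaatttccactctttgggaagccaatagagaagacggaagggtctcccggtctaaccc
Slc38a4 inner promoter: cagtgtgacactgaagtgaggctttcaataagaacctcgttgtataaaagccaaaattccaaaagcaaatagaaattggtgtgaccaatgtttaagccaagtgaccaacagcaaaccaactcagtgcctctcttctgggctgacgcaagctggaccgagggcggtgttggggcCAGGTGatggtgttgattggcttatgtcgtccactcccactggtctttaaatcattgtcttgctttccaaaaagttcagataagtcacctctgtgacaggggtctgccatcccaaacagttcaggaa
Slc1a4 promoter: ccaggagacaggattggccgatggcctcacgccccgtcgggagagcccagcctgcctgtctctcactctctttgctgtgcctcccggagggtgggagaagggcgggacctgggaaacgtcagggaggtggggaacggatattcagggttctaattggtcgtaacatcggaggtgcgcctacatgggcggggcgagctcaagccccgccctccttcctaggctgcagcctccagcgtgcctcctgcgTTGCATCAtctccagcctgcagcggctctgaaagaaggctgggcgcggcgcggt

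Genes that work beside the transporters were read from lists. Of all measured genes, 3.96% were higher and 6.34% lower by the 2-fold threshold. Of 11 measured other amino acid carriers and partners 0 were 2-fold apart in either direction, with a median log2 difference of -0.29, and the aromatic amino acid carrier Slc16a10 was at -0.46. The list of the amino acid shortage response had 27 measured genes, 2 of them higher and 4 lower by 2-fold, with a median of -0.19. Atf3, a stress-induced transcription factor gene, was seen in the library labelled Snail alone, at 40.1 against 8.37, and was at least 2.24-fold higher there. Atf4, which encodes the main transcription factor of that response, was at -0.24 and its target Asns, asparagine synthetase, at -0.12. Nupr1, a stress-induced chromatin protein, was 4.59-fold higher and Ddit3, the stress factor CHOP, 2.09-fold, whereas the pseudokinase gene Trib3 was 3.15-fold lower, the transcription factor gene Atf5 2.56-fold, the alanine aminotransferase gene Gpt2 2.22-fold and the glutathione-degrading enzyme gene Chac1 2.06-fold.

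Of 24 measured genes of amino acid sensing by mTORC1, 1 was higher and 0 were lower, with a median of 0.01. The higher gene was Castor2, a relative of the arginine sensor gene Castor1, at 2.63-fold. Castor1 itself was below background on both arrays. Among 35 measured enzymes of glutamine, glutamate, cysteine and other amino acid use 10 were lower and 1 higher by the 2-fold threshold, with a median of -0.44. Over all measured genes the shares were 6.34% lower and 3.96% higher. Beside the transaminase gene Got1 at 6.79-fold lower, arginase Arg1 was 3.74-fold lower, the gamma-glutamyltransferase family gene Ggt6 2.63-fold and the tryptophan dioxygenase gene Tdo2 2.60-fold. The 1 higher gene was Gss, glutathione synthetase, at 2.01-fold. Of 12 measured regulators of transporters 0 were 2-fold apart, with a median of 0.27, and the kinase gene Wnk4, seen in the library labelled Snail alone at 35.9 against 5.70, was at least 2.0-fold higher there.

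**Figure D5:**
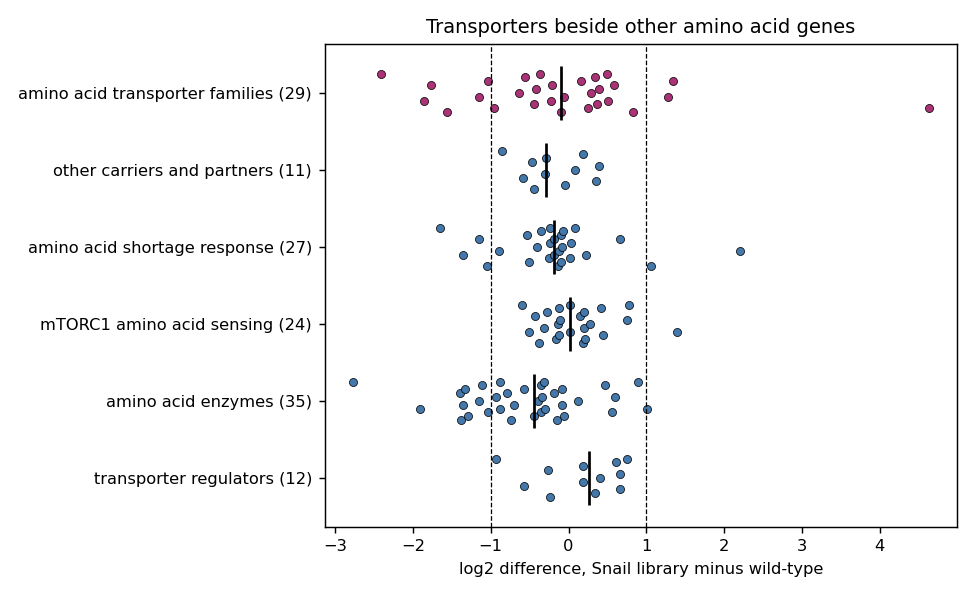
Log2 difference (library labelled Snail minus wild-type) of each measured gene in the transporter families (29 genes) and in 5 lists of other amino acid genes, with the number of genes in brackets, a bar at each median and dashed lines at 2-fold. The median is lowest for the amino acid enzymes, at -0.44, and the transporters have the widest range, from -2.40 to 4.63.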

How the data were processed

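Total RNA of the 2 livers was labelled with Cy3 and read on 1-colour Agilent arrays. Scanner files were made with Agilent Feature Extraction 9.5.1.1, as the submitters' processing notes say. Per the file headers, the deposited intensity values had background subtracted and spatial trends removed array by array, with no scaling across arrays, and other columns flag each spot. Spots well above background numbered 21800 and 23230 of 43020. A deposited value table of the same arrays has no stated scale or centring; its columns both had a median of 17.3 and followed the scanner values at r = 1.00 on the log2 scale across probes.

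Control spots and 287 outlier spots (2 of members, both of Slc1a1) were left out, and 0 spots were saturated. Spots of a probe were averaged as log2 signal minus the array's 75th percentile. A probe counted as well above background where over 50% of its spots did, and a gene's value is the mean of probes well above background on both arrays. A gene seen on 1 array has a bound against the higher of the dim array's lowest signal well above background and its own. Of the members' 77 probes, 76 matched a RefSeq accession, with 0 changed names; 1 probe of another name is now Slc6a21 and was below background on both arrays. Probe positions are mm9, per the file headers; whether they lie in exons or UTRs was not looked up.

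Python 3.11.15, R 4.3.3 and limma 3.58.1 were used. The script was checked on simulated data. Members and lists were chosen with earlier results of these data known. Named with values were members above background on at least 1 array and, of other lists, the 4 largest differences past 2-fold each way, partner genes and some further cell and tissue markers. Slc1a1 and the creatine genes were singled out after their values were seen. Some genes are not reported here by name. Alternatives were normexp with an offset of 50, quantile normalization, scaling on the median, the value table, a signal minimum of 100, no filter, the brightest probe, 1.5-fold, and leaving out Slc7a6os or the SLC6 family.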

Additional observations from a re-analysis of the deposited data

Results flagged for a closer look

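Among probes that gave neither a difference nor a bound, and so apart from the dim Slc7a5 probe already described, 2 had spots well above background in the library labelled Snail and none in wild-type liver. For Slc1a1 these were 3 of 8 spots, with mean signals of 3.03 in wild-type and 13.5 in the library labelled Snail. For Slc38a1 it was the 1 spot of a probe at 8.66 and 18.5. Both signals lie near the lowest that were well above background, 13.8 for wild-type and 12.3 for the other array.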

How the results depend on the processing

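The number of arrays limits the precision, and nothing here measures the spread between animals. The counts of 3 higher and 6 lower members stayed within 1.5 times under every alternative run except the 1.5-fold rule, where 5 were higher and 8 lower, beside 1551 and 2245 of all 15466 measured genes. The 6 lower genes were 5 with the authors' value table, normexp or quantile normalization, each time without Slc38a4, and 7 with no filter, where Slc7a4 was added. The median of -0.09 was -0.30 with a signal minimum of 100, over 20 genes, and -0.54 with no filter, over 62; without a filter the median of all genes was -0.54 too, because signals below it are then raised to each array's lowest signal well above background. Under the other ways of processing the median of all genes lay between -0.05 and 0.02. With normexp 297 genes of all were at least 2-fold higher and 572 lower, in place of 613 and 980. Leaving out the SLC6 family gave 2 higher and 5 lower genes. No paired analysis was possible because each group holds 1 array.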
